A study of Rattus norvegicus with 372 samples.

Results

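The acute phase proteins described here are 10 liver-made plasma proteins whose synthesis changes during inflammation: alpha-2-macroglobulin (A2m), orosomucoid 1 (Orm1), haptoglobin (Hp), hemopexin (Hpx), C-reactive protein (Crp), lipocalin 2 (Lcn2), lipopolysaccharide binding protein (Lbp), ceruloplasmin (Cp), serpin family A member 3N (Serpina3n) and inter-alpha-trypsin inhibitor heavy chain 3 (Itih3). They were found in the tables by gene symbol. Of the 20946 genes of the whole transcriptome (WT) assay, 9 carried one of these symbols, measured by 10 probes (2 for A2m and 1 for each of the others). The expression of Serpina3n was not analysed here. Of the 2604 genes of the smaller surrogate (ST) assay, 8 did, since Lbp was measured by WT assay alone. All 9 genes averaged 10 or more counts per well and so entered the tests, as did 10191 genes in all.

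The counts came from primary hepatocytes of male Wistar rats, kept between layers of collagen in William's medium E and treated for 24 h with 14 chemicals, each at a low and a high concentration. Hepatocytes of 1 rat made up each of 2 batches. Every treatment had 3 wells per batch, which are technical replicates, so n is 2 rats and the p-values mostly measure the spread between wells. The vehicle group had 0.5% DMSO, as did every treatment, and had 3 wells in batch 1 and 6 in batch 2. A further group had culture medium alone. All wells, vehicle included, had 100 nM dexamethasone, a synthetic glucocorticoid, together with 10 ng/mL epidermal growth factor and 0.5 µg/mL insulin in their medium. TempO-Seq counts ligated pairs of short detector oligos on lysed cells, and WT read counts per well ranged from 2289425 to 8975207.

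In the acute phase response, macrophages that meet microbes or damaged tissue release interleukin 1 and interleukin 6, and these cytokines raise the transcription of a set of secreted proteins in hepatocytes. Interleukin 6 acts through STAT3 and interleukin 1 through NF-κB and C/EBP factors, and glucocorticoids strengthen both in rat liver. The proteins bind free hemoglobin, heme, iron or bacterial products, or block proteases. A2m and Orm1 are major acute phase proteins of the rat, whereas Crp, the main one in humans, is always present in rat plasma and changes less.

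The windows before the gene starts of Orm1 and Lcn2, the pair with the highest correlation of changes over all 28 treatments, and of Crp, whose changes did not follow theirs, are shown to compare their letters. They were read from RefSeq promoters of the rat assembly GRCr8, cut to the bases before the annotated gene, and each runs 5′ to 3′ on the strand of its gene.
Orm1, chr5:81788259-81788508, plus strand: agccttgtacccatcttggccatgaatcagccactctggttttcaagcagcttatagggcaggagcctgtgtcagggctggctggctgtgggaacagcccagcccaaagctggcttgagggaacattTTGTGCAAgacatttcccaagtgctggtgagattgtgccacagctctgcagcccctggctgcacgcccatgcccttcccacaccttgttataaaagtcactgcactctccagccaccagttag
Lcn2, chr3:36081852-36082030, minus strand: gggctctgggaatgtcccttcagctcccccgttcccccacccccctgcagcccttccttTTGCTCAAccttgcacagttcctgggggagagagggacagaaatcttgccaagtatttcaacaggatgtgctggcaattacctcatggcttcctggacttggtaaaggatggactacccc
Crp, chr13:87693812-87694061, plus strand: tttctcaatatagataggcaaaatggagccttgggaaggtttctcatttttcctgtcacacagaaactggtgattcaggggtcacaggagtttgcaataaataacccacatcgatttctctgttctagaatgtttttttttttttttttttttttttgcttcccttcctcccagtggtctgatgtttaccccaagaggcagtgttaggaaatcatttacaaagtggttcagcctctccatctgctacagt
Capitals mark matches to TTNNGCAA, a core of the C/EBP binding motif, on either strand. Orm1 and Lcn2 held 1 match each and Crp held none. Hpx had one before its gene too. Of the full windows of all 33469 promoters, not cut at the gene, 9.22% held a match, and on that count 4 of the 7 listed genes in the table did. The fourth is Cp, whose window and match lie inside the annotated gene. The type 2 acute phase element CTGGGAA, found in 9.56% of all promoters, matched Lcn2 and Serpina3n, and the STAT motif TTCNNNGAA, found in 7.67%, matched Serpina3n alone, where the matches overlap. The glucocorticoid receptor core TGTTCT, found in 17.5%, matched Crp alone among the 7. Both strands were searched for each motif. A match of letters is not a bound site, and promoters of A2m, Hp and Lbp were not in the table.

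Levels are given as CPM, the reads of a gene per 1000000 reads of its well. They were not compared between genes because each probe captures its target with its own efficiency. Together the 9 genes took 2.09% to 2.56% of all reads in the vehicle wells of batch 1 and 1.34% to 1.99% in those of batch 2. The batches differ in rat and also in library construction and sequencing, which the study did separately for each, and these cannot be told apart. The vehicle wells of the batches differed most in Lcn2, an iron-siderophore binding protein, with 2438 ± 539 CPM (mean ± SD of 3 wells) in batch 1 and 539 ± 187 CPM (6 wells) in batch 2, a ratio of 4.53. For Cp, a copper carrier that oxidizes iron, the ratio was 2.84, for Hp 1.49, for Crp 1.34 and for Orm1 1.33, and every vehicle well of batch 1 lay above every one of batch 2 for these 5 genes. A2m, Hpx, Itih3 and Lbp overlapped between the batches.

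Hepatocyte markers were high in every vehicle well, with a summed level of 18298 to 24633 CPM over 9 genes. The summed level of Kupffer cell and macrophage markers was 49.4 to 79.0 CPM in vehicle wells, that of stellate cell and fibroblast markers 35.1 to 169 CPM, that of cholangiocyte markers 37.7 to 50.6 CPM and that of endothelial markers 2.25 to 5.10 CPM. The neutrophil markers Mpo, Ltf, Camp and Elane were at 0 counts in all 9 vehicle wells. With the high concentrations, hepatocyte markers ranged from 4379 to 28081 CPM and Kupffer cell and macrophage markers from 4.99 to 144 CPM. Of the 126 tests of 9 hepatocyte markers over the 14 high treatments, 21 were higher and 65 lower (51.6%) than vehicle, and of the 98 tests of 7 macrophage genes, 7 were higher and 61 lower (62.2%). Over all tested genes 25.5% were lower, and over the acute phase proteins 51.6%, the same share as of the hepatocyte markers. Their part in the results was not tested, and fewer cells of a type and less RNA per cell cannot be told apart in lysate. Textbook targets, chosen after their values were seen, were higher in both batches with the chemical named by the labels: Cyp4a1 with 200 µM WY14643 (log2 fold change, L2FC, of 10.94), Cyp51 with 15 µM ketoconazole (2.99), Hmgcs1 with 60 µM simvastatin (2.44), Mdm2 with 2 µM doxorubicin (1.28) and Pck1 with 10000 µM caffeine (10.59). The labels of the other 9 chemicals were not checked against a target gene. Treatments are named by the sample labels throughout, and the study's own listing by chemical leaves some doubt about which chemical some of these labels stand for.

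Treatments were set against the vehicle wells of the same batch in one edgeR fit of all genes and both batches, and L2FC is the log2 fold change from that fit. A gene was called when its Benjamini-Hochberg adjusted p was under 0.05. Over 28 treatments the 9 genes made 252 tests, of which 44 were called higher (17.5%) and 70 lower (27.8%). Over all tested genes and the same treatments, 15.2% of tests were called higher and 15% lower. With the high concentrations 31 of 126 tests were higher (24.6%) and 65 lower (51.6%), beside 25.4% higher and 25.5% lower over all tested genes. With the low concentrations 13 were higher (10.3%) and 5 lower (3.97%), beside 4.91% and 4.5% over all tested genes. The share of higher calls at high concentrations and of lower calls at low concentrations was thus near that of all genes. Of the 114 calls, 60 were kept under all 11 of these alternatives: RLE size factors, total counts, no count filter, no batch term, each batch by itself, each of 3 replicate numbers left out, DESeq2 and vehicle wells of the same plate in batch 2. These were 43 of the 65 lower and 15 of the 31 higher calls at high concentrations, 2 of the 5 lower calls at low concentrations and none of the 13 higher ones. The ST assay, which lacks Lbp, and a minimum absolute L2FC of 1 are counted apart from the 11.

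**Figure D1:**
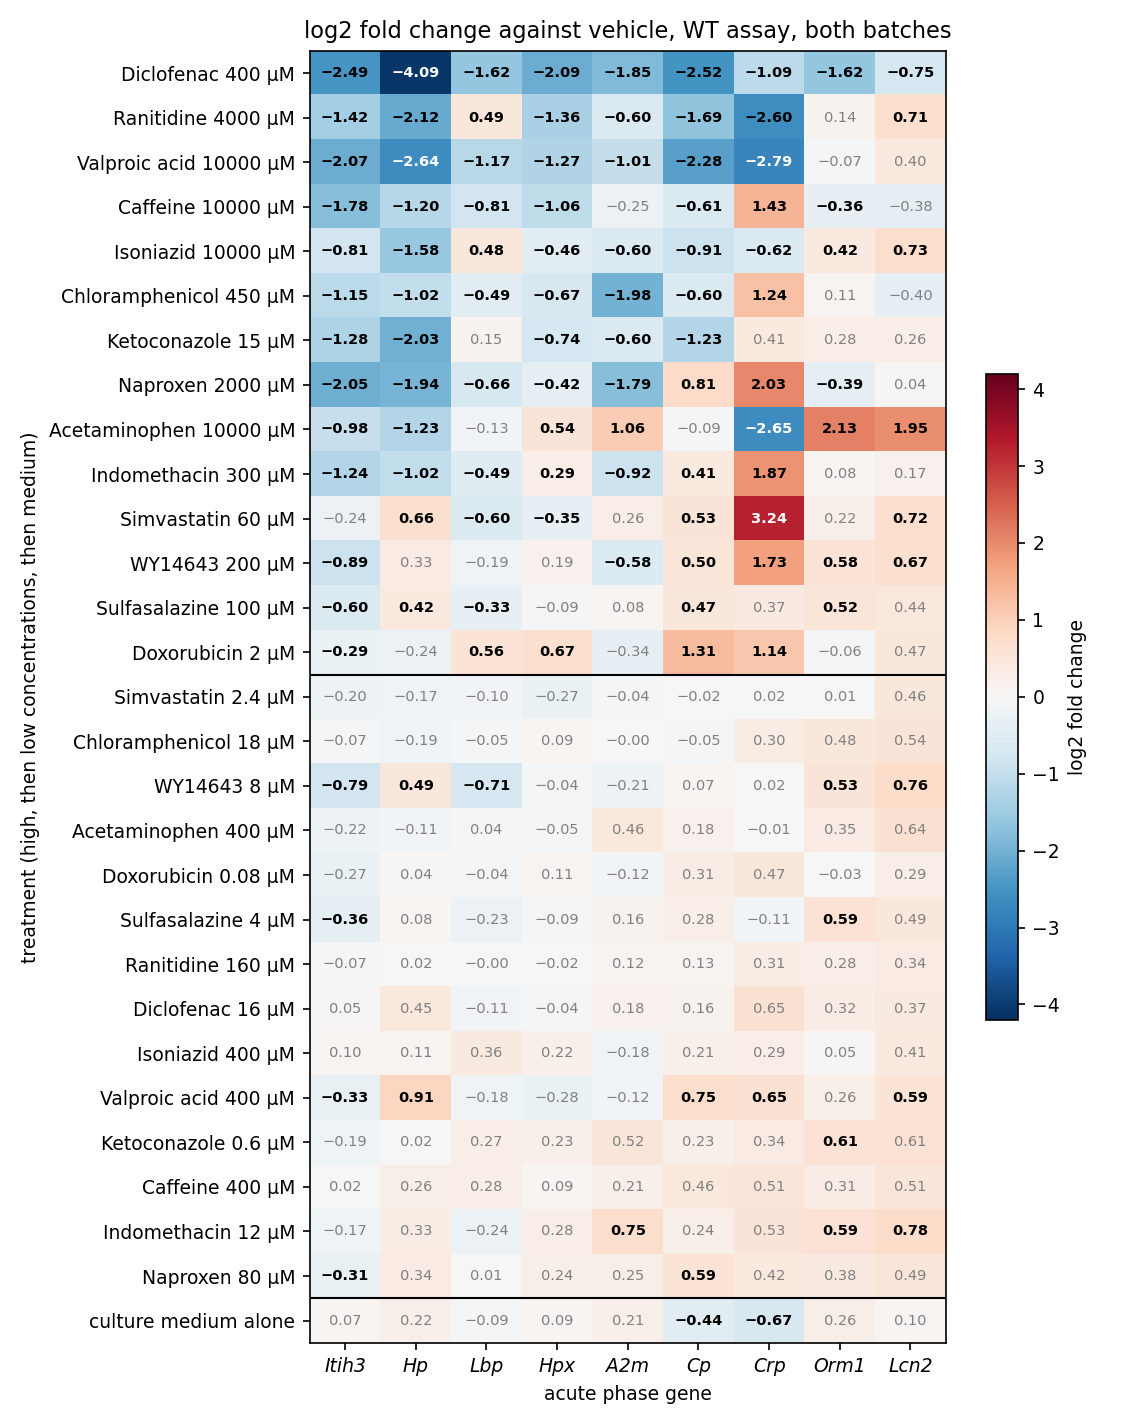
L2FC against vehicle (color scale, log2) of the 9 acute phase proteins (columns) with each of 28 treatments and culture medium alone (rows), WT assay, both batches, with called values in bold. Diclofenac at 400 µM lowered all 9 genes, Itih3 was called higher in no treatment, and Crp ran from -2.79 with 10000 µM valproic acid to 3.24 with 60 µM simvastatin.

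The genes did not move as one group. Of the 14 high treatments, 11 had genes called in both directions, 3 (diclofenac, ketoconazole and valproic acid) had lower calls alone, and none had higher calls alone. By gene, Lcn2 was higher in 8 treatments and lower in 1, and Orm1 was higher in 8 and lower in 3. Crp was higher in 8 and lower in 5, and Cp was higher in 8 and lower in 7. Hp was higher in 4 and lower in 10, A2m higher in 2 and lower in 9, Hpx higher in 3 and lower in 9, Lbp higher in 3 and lower in 9, and Itih3 lower in 17 and higher in none.

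Orm1 encodes alpha-1-acid glycoprotein, a carrier of basic drugs in plasma, and Lcn2 withholds iron from bacteria. Both rose most with 10000 µM acetaminophen. Orm1 vehicle wells held 11483, 11981 and 13619 CPM in batch 1 and from 7403 to 10989 CPM (median 9401) in batch 2. Acetaminophen wells held 41089.9, 47888 and 52029 CPM in batch 1 and 21993, 22133 and 34287 CPM in batch 2. All 6 lay above every vehicle well of either batch, and the fit gave a 4.37-fold rise (L2FC of 2.13 ± 0.15 SE, edgeR adjusted p = 3.63e-29). The fit scaled each well by a TMM factor besides its total count, 0.714 to 0.842 in acetaminophen wells and 1.01 to 1.07 in vehicle wells. Its fold is thus larger than the printed CPM give. With total counts alone the median L2FC of all genes with this treatment was -0.43, and the Orm1 call was kept.

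Lcn2 vehicle wells held 2048, 2213 and 3053 CPM in batch 1 and from 315 to 776 CPM (median 499) in batch 2. With acetaminophen they held 6975, 8021 and 9054 CPM in batch 1 and 985, 1086 and 1707 CPM in batch 2. The wells stood above the vehicle of their own rat in both batches, whereas those of batch 2 stayed below all vehicle wells of batch 1. The rise was 3.87-fold in the fit, again more than the printed CPM give (L2FC of 1.95 ± 0.21 SE, edgeR adjusted p = 9.72e-17). In acetaminophen wells the 9 genes together took 6.16% to 6.85% of reads in batch 1 and 3.03% to 4.26% in batch 2, most of them reads of Orm1.

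Both genes fell with 400 µM diclofenac. Orm1 held 4694, 4893 and 5577 CPM in batch 1 and 2392, 2995 and 3462 CPM in batch 2, below every vehicle well (L2FC of -1.62 ± 0.16 SE, edgeR adjusted p = 4.33e-18). Lcn2 held 1164, 1238 and 1483 CPM in batch 1 and 274, 424 and 546 CPM in batch 2, and the wells of batch 2 overlapped vehicle (L2FC of -0.75 ± 0.21 SE, edgeR adjusted p = 0.000908). The Lcn2 call was lost under 4 of the 11 alternatives (no batch term, batch 2 alone, without replicate 2 and vehicle wells of the same plate) and in the ST assay. Apart from acetaminophen, the 2 genes were both called higher with 10000 µM isoniazid (0.42 and 0.73 for Orm1 and Lcn2), 200 µM WY14643 (0.58 and 0.67), 8 µM WY14643 (0.53 and 0.76) and 12 µM indomethacin (0.59 and 0.78). In each of these 4 treatments the call of at least 1 of the genes was lost under some of the 11 alternatives, and of the 8 higher calls of each gene 1, with acetaminophen, was kept under all.

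**Figure D2:**
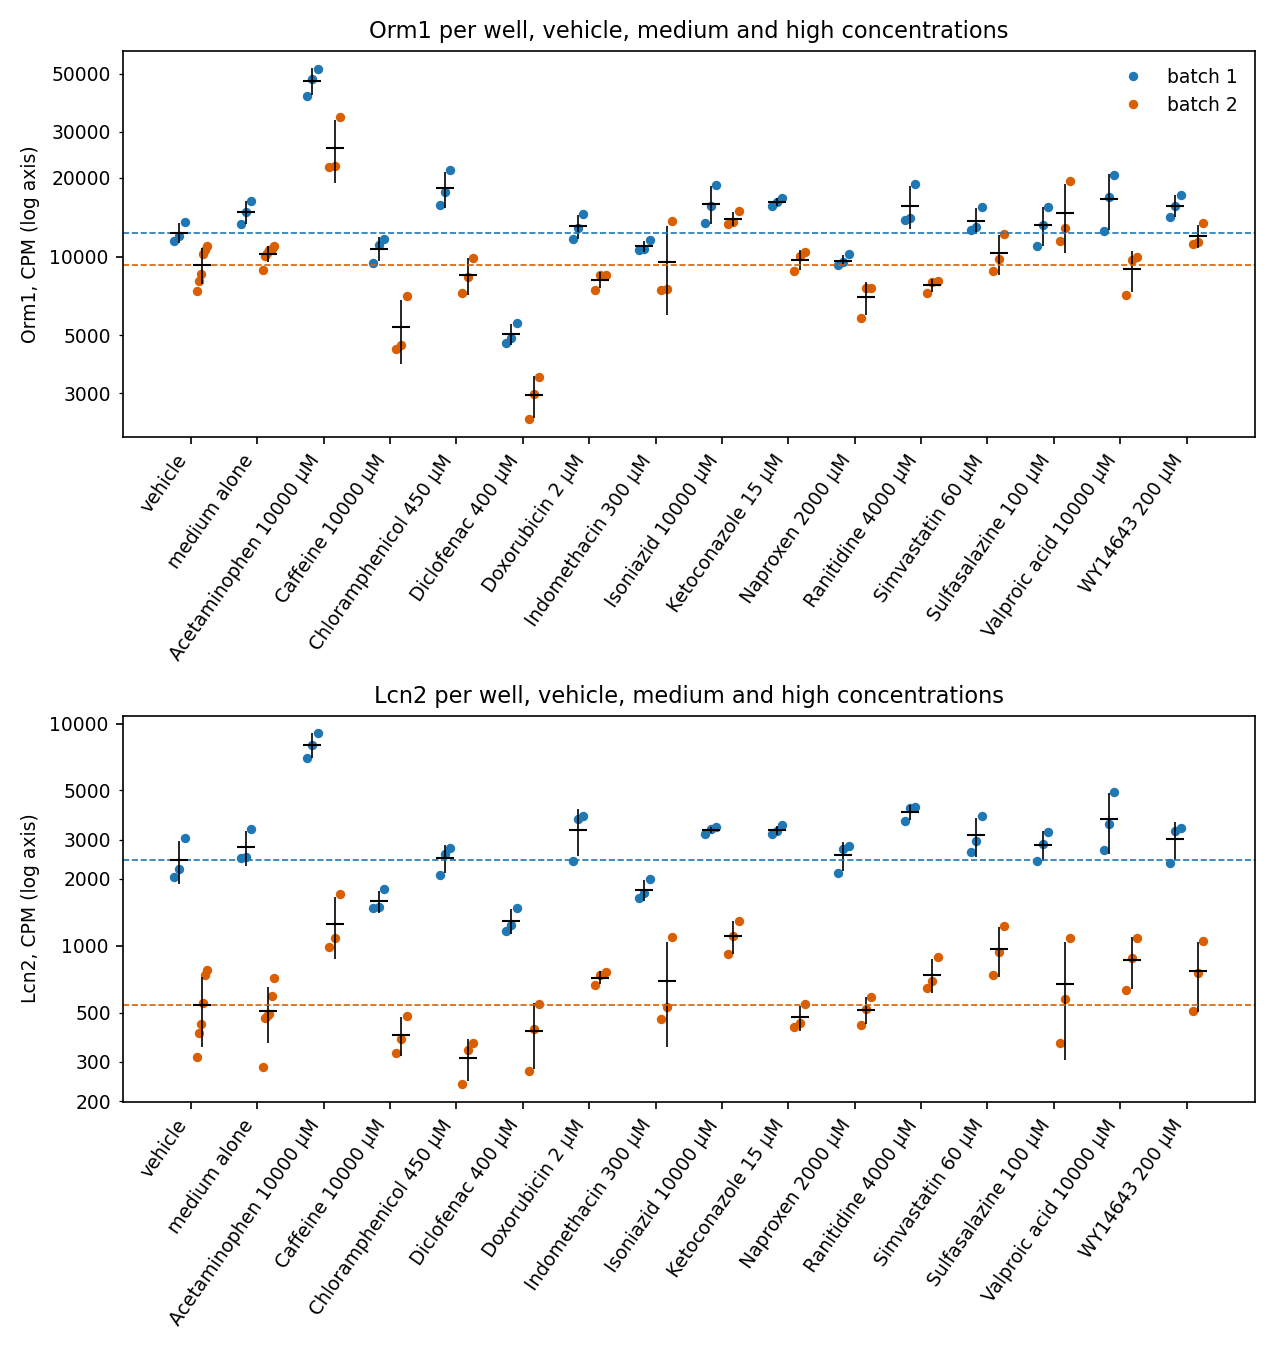
CPM per well (log axis) of Orm1 and Lcn2 in vehicle, culture medium and the 14 high treatments, 1 point per well in the color of its batch, with mean and SD as black bars and the vehicle mean of each batch as a dashed line. Acetaminophen has the highest mean of both genes within each batch, and every Lcn2 vehicle well of batch 2 lies below those of batch 1.

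Crp, a pentraxin that binds phosphocholine on microbes and dying cells, had the widest range of changes. Its vehicle wells held 100.4, 116 and 124 CPM in batch 1 and from 70.9 to 99.1 CPM (median 85.1) in batch 2. With 60 µM simvastatin they held 736, 761 and 844 CPM in batch 1 and 718, 986 and 1128 CPM in batch 2. Every simvastatin well stood above every vehicle well, a 9.44-fold rise (L2FC of 3.24 ± 0.21 SE, edgeR adjusted p = 6.53e-31). Crp was also higher with 2000 µM naproxen (4.07-fold), 300 µM indomethacin (3.67-fold) and 200 µM WY14643 (3.32-fold), and with 10000 µM caffeine, 450 µM chloramphenicol and 2 µM doxorubicin (L2FC of 1.43, 1.24 and 1.14). All 7 of these rises held under the 11 alternatives, and the rise with 400 µM valproic acid (0.65) did not.

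Crp also fell in 5 treatments. With 10000 µM valproic acid its wells held 18.6, 21.0 and 35.0 CPM in batch 1 and 9.48, 11.6 and 11.7 CPM in batch 2, all below vehicle, and the level fell to 0.145 of vehicle (L2FC of -2.79 ± 0.24 SE, edgeR adjusted p = 2.33e-21). Acetaminophen, which raised Orm1 and Lcn2 most, left Crp at 6.32, 6.85 and 12.6 CPM in batch 1 and 9.34, 15.0 and 16.0 CPM in batch 2 (L2FC of -2.65 ± 0.25 SE, edgeR adjusted p = 9.31e-20). With 4000 µM ranitidine the L2FC of Crp was -2.60 and with 10000 µM isoniazid -0.62. With diclofenac the batch 1 wells disagreed, at 33.2, 48.2 and 162 CPM, so that one of them lay above all vehicle wells and the others below. Its L2FC was -1.75 in batch 2 and -0.55, not called, in batch 1.

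Lbp hands bacterial lipopolysaccharide to CD14. Its vehicle wells were alike in the rats, at 156, 165 and 169.9 CPM in batch 1 and 149 to 187 CPM (median 167) in batch 2. With diclofenac they held 45.6, 51.5 and 58.7 CPM in batch 1 and 63.9, 65.9 and 73.3 CPM in batch 2, all below vehicle (L2FC of -1.62 ± 0.10 SE, edgeR adjusted p = 8.24e-35). With 2 µM doxorubicin they held 255, 256 and 274 CPM in batch 1 and 207, 240.5 and 248 CPM in batch 2, all above vehicle. That rise was 1.47-fold (L2FC of 0.56 ± 0.09 SE, edgeR adjusted p = 2.2e-07). Lbp was also higher with ranitidine (0.49) and isoniazid (0.48), at concentrations at which Crp, Hp, Hpx, Cp, A2m and Itih3 were lower.

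**Figure D3:**
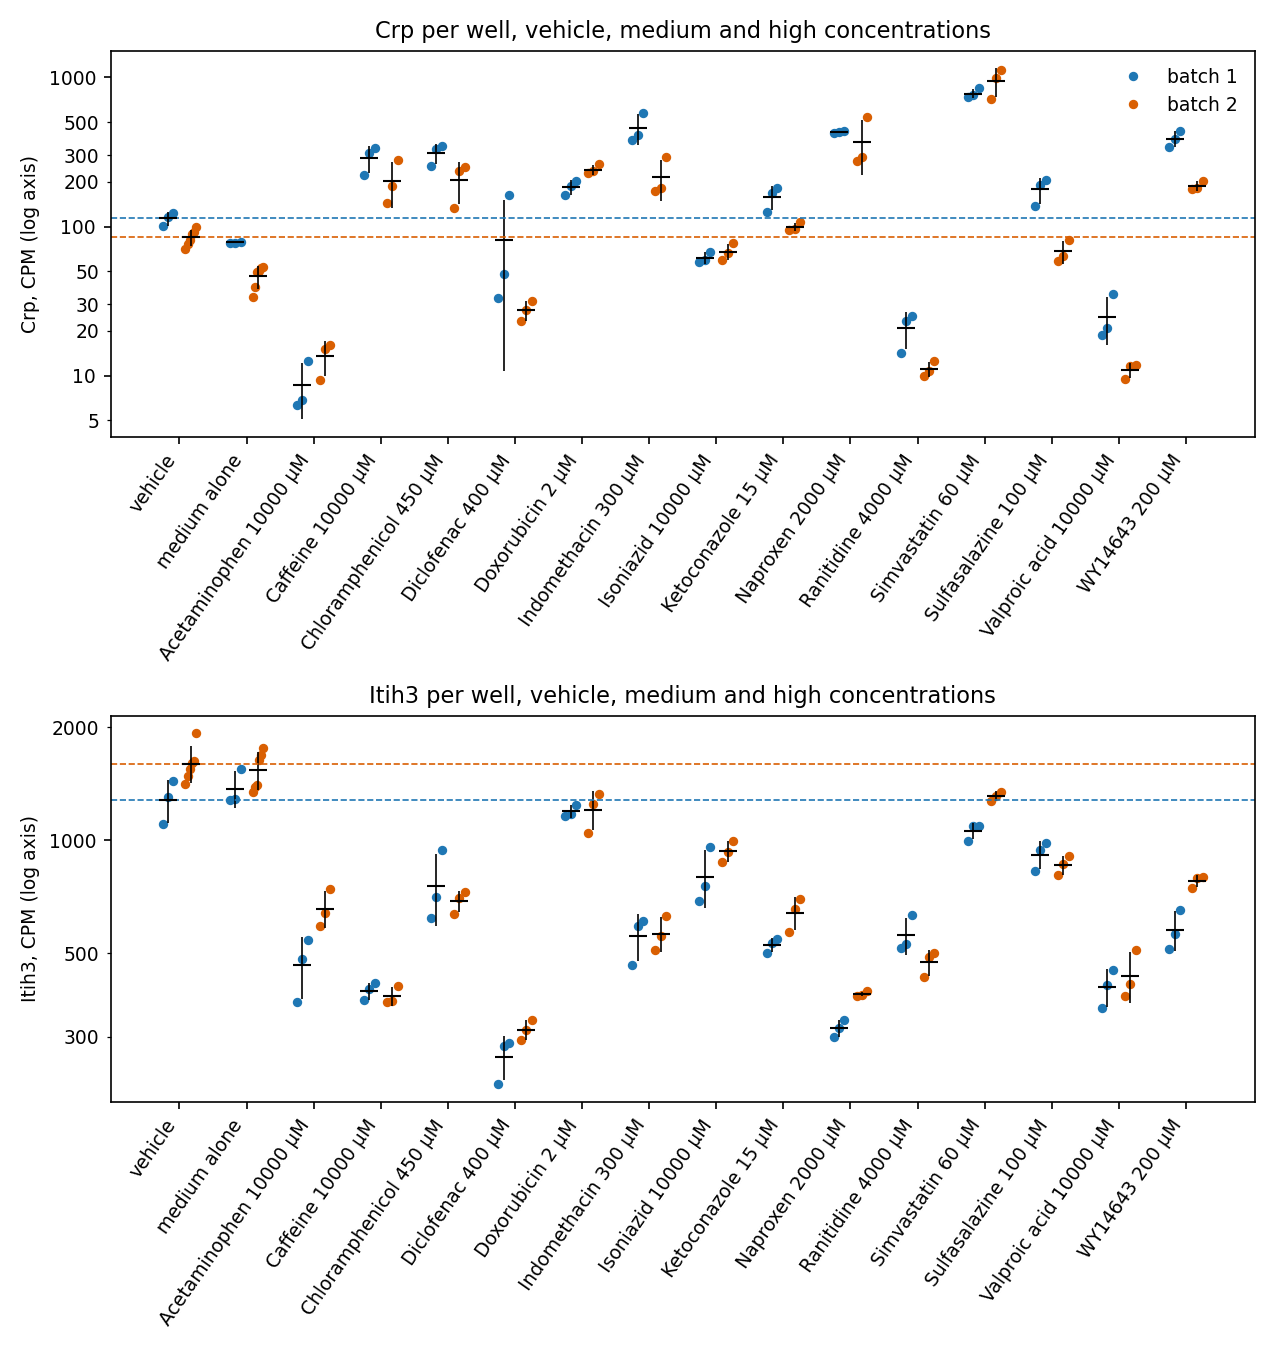
CPM per well (log axis) of Crp and Itih3 in vehicle, culture medium and the 14 high treatments, 1 point per well in the color of its batch, with mean and SD as black bars and the vehicle mean of each batch as a dashed line. Crp spans from 6.32 CPM in an acetaminophen well to 1128 CPM in a simvastatin well, and Itih3 is called higher in no treatment.

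Hp, Hpx and Cp limit damage from free hemoglobin, heme and iron. Hp had the deepest fall of the group. Its vehicle wells held 296, 326 and 412 CPM in batch 1 and from 169 to 282 CPM (median 238) in batch 2, and its diclofenac wells held 14.3, 16.7 and 23.4 CPM in batch 1 and 12.9, 13.8 and 26.8 CPM in batch 2. The level fell to 0.0586 of vehicle (L2FC of -4.09 ± 0.22 SE, edgeR adjusted p = 2.1e-40). Hp also fell by more than 2 on the log2 scale with valproic acid (-2.64), ranitidine (-2.12) and ketoconazole (-2.03), and by less with naproxen (-1.94), isoniazid (-1.58), acetaminophen (-1.23), caffeine (-1.20), chloramphenicol (-1.02) and indomethacin (-1.02). The highest Hp level was with the low concentration of valproic acid, 400 µM, at 405, 446 and 510.1 CPM in batch 1, overlapping vehicle, and 517, 533 and 565 CPM in batch 2, above it (L2FC of 0.91 ± 0.17 SE, edgeR adjusted p = 6.81e-06). Valproic acid thus raised Hp at one concentration and lowered it at the other.

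Hpx vehicle wells held 997, 1124 and 1154 CPM in batch 1 and from 885 to 1425 CPM (median 1078) in batch 2. With diclofenac they held 230.4, 317 and 459 CPM in batch 1 and 226, 231 and 265 CPM in batch 2, all below vehicle (L2FC of -2.09 ± 0.14 SE, edgeR adjusted p = 4.54e-31). With doxorubicin they held 1674, 1817 and 1976 CPM in batch 1 and 1635, 1760.3 and 1764 CPM in batch 2, all above vehicle (L2FC of 0.67 ± 0.13 SE, edgeR adjusted p = 1.06e-05). Hpx was called higher with acetaminophen too (0.54), but not when counts were scaled by library totals alone (0.14) or against the vehicle wells of its plate in batch 2 (0.25).

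Cp was called higher in 8 treatments and lower in 7, and 1 of the higher and 4 of the lower calls were kept under all 11 alternatives. The higher calls with 300 µM indomethacin, naproxen at 80 and 2000 µM, 60 µM simvastatin, 100 µM sulfasalazine and 200 µM WY14643 were lost in batch 1 alone. No lower call was lost there. With the 14 low treatments its L2FC was positive in 3 in batch 1 alone and in 14 in batch 2 alone. Its vehicle wells held 413, 448 and 589.8 CPM in batch 1 and from 151 to 189 CPM (median 175) in batch 2. With diclofenac they held 69.2, 69.6 and 77.6 CPM in batch 1 and 28.02, 38.4 and 49.0 CPM in batch 2 (L2FC of -2.52 ± 0.16 SE, edgeR adjusted p = 3.05e-33). With doxorubicin they held 944, 1026 and 1137 CPM in batch 1 and 352, 481 and 509.8 CPM in batch 2. These were above the vehicle wells of their batch, a 2.48-fold rise (L2FC of 1.31 ± 0.14 SE, edgeR adjusted p = 6.37e-15). The rise of Cp with 2000 µM naproxen (0.81 ± 0.14 SE) came from batch 2, with an L2FC of 1.28 there against 0.19 in batch 1.

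A2m traps proteases, and Itih3 is a heavy chain of the inter-alpha-trypsin inhibitor family that is joined to hyaluronan in the matrix. A2m vehicle wells held 3721, 4658 and 5119 CPM in batch 1 and from 2758 to 4489.9 CPM (median 3777) in batch 2. With 450 µM chloramphenicol they held 1393, 1822 and 1968 CPM in batch 1 and 692, 708 and 844 CPM in batch 2, all below vehicle, and A2m fell to 0.254 of vehicle (L2FC of -1.98 ± 0.20 SE, edgeR adjusted p = 3.68e-16). With acetaminophen they held 7548, 9022 and 9779.9 CPM in batch 1 and 4771, 4895 and 5327 CPM in batch 2, above the vehicle of their batch (L2FC of 1.06 ± 0.18 SE, edgeR adjusted p = 6.27e-08). A2m thus rose with Orm1 and Lcn2 in acetaminophen wells, while Hp, Itih3 and Crp fell in the same wells. The other rise of A2m was with 12 µM indomethacin (0.75), whose high concentration lowered it (-0.92). The 2 probes of A2m held 76.7% and 23.3% of its reads. The probe with fewer reads was not called with 12 µM indomethacin (0.60, edgeR adjusted p = 0.0679) or 4000 µM ranitidine (-0.18, adjusted p = 0.467), where the gene was, and was called lower with 8 µM WY14643 (-0.60, adjusted p = 0.0135), where the gene was not.

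Itih3 was lower with 13 of the 14 high treatments, simvastatin being the exception (L2FC of -0.24, not called). Vehicle wells held 1103, 1299.9 and 1437 CPM in batch 1 and from 1413 to 1928 CPM (median 1575) in batch 2. Diclofenac wells held 224, 283 and 288 CPM in batch 1 and 295, 313 and 332 CPM in batch 2, all below vehicle, and the level fell to 0.178 of vehicle (L2FC of -2.49 ± 0.12 SE, edgeR adjusted p = 2.02e-44). The smallest fall called was with doxorubicin (-0.29, edgeR adjusted p = 0.0484), where the batch 1 wells overlapped vehicle, and it was lost under 8 alternatives. Of its 17 lower calls 12 were kept under all 11 alternatives, 4 of which, with 10000 µM acetaminophen, 10000 µM isoniazid and WY14643 at 8 and 200 µM, had an absolute L2FC under 1.

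By treatment, 400 µM diclofenac lowered all 9 genes, Lcn2 with the losses given above, against 35.8% of all tested genes called lower, and the median L2FC of the 9 was -1.85. The 9 genes took 0.838% to 0.911% of reads in its wells of batch 1 and 0.424% to 0.600% in those of batch 2. Valproic acid at 10000 µM lowered 7 genes (33.2% of all genes lower) and ketoconazole at 15 µM lowered 5 (26.3%). Caffeine at 10000 µM and chloramphenicol at 450 µM each lowered 6 genes and raised Crp alone, where 34.6% of all genes were higher and 31.6% lower with caffeine, and 16.1% and 17.2% with chloramphenicol. Naproxen at 2000 µM lowered 6 and raised Crp and Cp (27.6% of all genes higher and 26.2% lower). Itih3, Hp and Hpx were called lower in all 6 of these treatments. The call of Hpx with naproxen was lost in batch 2 alone, without replicate 2 and against the vehicle wells of its plate in batch 2. Those of Hp and Hpx with chloramphenicol were lost in batch 1 alone.

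Ranitidine at 4000 µM lowered 6 genes and raised Lbp and Lcn2 (32.3% of all genes higher and 33.9% lower), and isoniazid at 10000 µM lowered the same 6 (Itih3, Hp, Hpx, A2m, Cp and Crp) and raised Lbp, Lcn2 and Orm1 (17.4% and 17.3%). With isoniazid only the calls of Itih3, Hp and Lbp were kept under all 11 alternatives. With ranitidine those of A2m and Lcn2 were lost under some. Acetaminophen at 10000 µM raised 4 genes (Orm1, Lcn2, A2m and Hpx) and lowered 3 (Crp, Hp and Itih3), where 38.8% of all genes were higher and 40.1% lower. Indomethacin at 300 µM raised 3 and lowered 4 (27.1% and 27.6%), and sulfasalazine at 100 µM raised 3 and lowered 2 (21.3% and 19.6%). With indomethacin the calls of Hpx, Cp and A2m were lost under some alternatives, and no call with sulfasalazine was kept under all 11. Simvastatin at 60 µM raised Crp, Lcn2, Hp and Cp and lowered Lbp and Hpx (11.4% and 12.5%). Of these only the calls of Crp and Lbp were kept under all 11 alternatives, and that of Hpx was kept under 3. WY14643 at 200 µM raised Crp, Lcn2, Orm1 and Cp and lowered Itih3 and A2m (26% and 25.4%), and only the calls of Crp and Itih3 were kept under all 11 alternatives. With 2 µM doxorubicin 4 genes (Cp, Crp, Hpx and Lbp) were higher and Itih3 lower, where 9.07% of all genes were higher and 10.3% lower. Its median of the 9 genes, 0.47, was the highest of the 14.

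At the low concentrations calls were fewer. Valproic acid at 400 µM raised Hp, Cp, Crp and Lcn2 and lowered Itih3 (15.1% of all genes higher and 14% lower), and WY14643 at 8 µM raised Lcn2, Orm1 and Hp and lowered Itih3 and Lbp (28% and 28.2%). Indomethacin at 12 µM raised A2m, Orm1 and Lcn2 (3.53% of all genes higher) and ketoconazole at 0.6 µM raised Orm1 (0.844%). Naproxen at 80 µM raised Cp and lowered Itih3 (8.64% and 7.4%), and sulfasalazine at 4 µM raised Orm1 and lowered Itih3 (9.35% and 8.03%). With the other 8 low treatments no member was called, and the share of all genes called in either direction was 1.38% with 400 µM acetaminophen, 0.118% with 400 µM caffeine, 0.0883% with 18 µM chloramphenicol, 0.137% with 16 µM diclofenac, 1.32% with 0.08 µM doxorubicin, 0.0196% with 400 µM isoniazid, 0.0589% with 160 µM ranitidine and 2.4% with 2.4 µM simvastatin. Lcn2 had a positive L2FC with all 14 low treatments, in each batch by itself too, and 3 of these were called. The 14 comparisons share their vehicle wells, so they are not separate evidence. The summed hepatocyte markers ranged from 16635 to 30572 CPM in these wells.

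The high concentration was compared with the low concentration of the same chemical, in which the vehicle wells play no part. Of 126 tests, 18 were higher with the high concentration and 63 lower, where 20.1% of the tests of all genes were higher and 20.7% lower. Crp went both ways, higher in 7 chemicals and lower in 5, from 3.21 with simvastatin to -3.44 with valproic acid. Hp was higher in 1 and lower in 10, with the largest difference for diclofenac (-4.54). Itih3 was lower in 10 and higher in none, A2m was lower in 8 and higher in 1, and Hpx lower in 8 and higher in 2. Lbp was lower in 7 and higher in 3, and Cp lower in 7 and higher in 2. Orm1 and Lcn2 were lower in 4 chemicals each and higher in 1, which was acetaminophen for both (1.78 and 1.31).

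DMSO by itself was compared through the wells of culture medium alone. Crp was lower without DMSO, at 78.3 ± 0.695 CPM (SD, 3 wells) in batch 1 and 46.3 ± 8.07 CPM (6 wells) in batch 2, against 113 ± 11.8 and 84.7 ± 10.5 CPM in vehicle (L2FC of -0.67 ± 0.19 SE, edgeR adjusted p = 0.00861). Cp was lower as well (-0.44 ± 0.13 SE, edgeR adjusted p = 0.0111). The wells of both genes lay below vehicle in each batch, and 5.1% of all genes were called lower. Neither call held in batch 1 alone or without the first well of each treatment, and none of the other 7 genes was called.

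Pearson's r of L2FC between pairs of genes over the 28 treatments describes which ran alike, with the limit that all L2FC of a batch share their vehicle wells. Orm1 and Lcn2 had the highest r over all 28, at 0.877, and it was 0.901 in batch 1 and 0.779 in batch 2. Without the 2 treatments farthest from the median of Orm1, acetaminophen and diclofenac, it was 0.646 (n = 26). The 2 farthest were chosen by the first gene of each pair alone, and 5 other pairs had a higher r without theirs. Of the calls of this pair 6 were shared with the same sign and none had opposite signs. Hp and Itih3 (r of 0.867, and 0.781 without the 2 farthest) and Hpx and Cp (0.854, and 0.739) also ran alike. Crp ran most like Cp (r of 0.636, and 0.608 without the 2 farthest), with 10 shared calls of the same sign and 2 of opposite signs, and its r to Hp was 0.469. Its r to Lcn2 was -0.319 (-0.078 without the 2 farthest) and to Lbp -0.0189. Crp and Lbp were called in opposite directions in 7 treatments and in the same direction in 3, and Crp and Itih3 in opposite directions in 7 and in the same in 5.

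**Figure D4:**
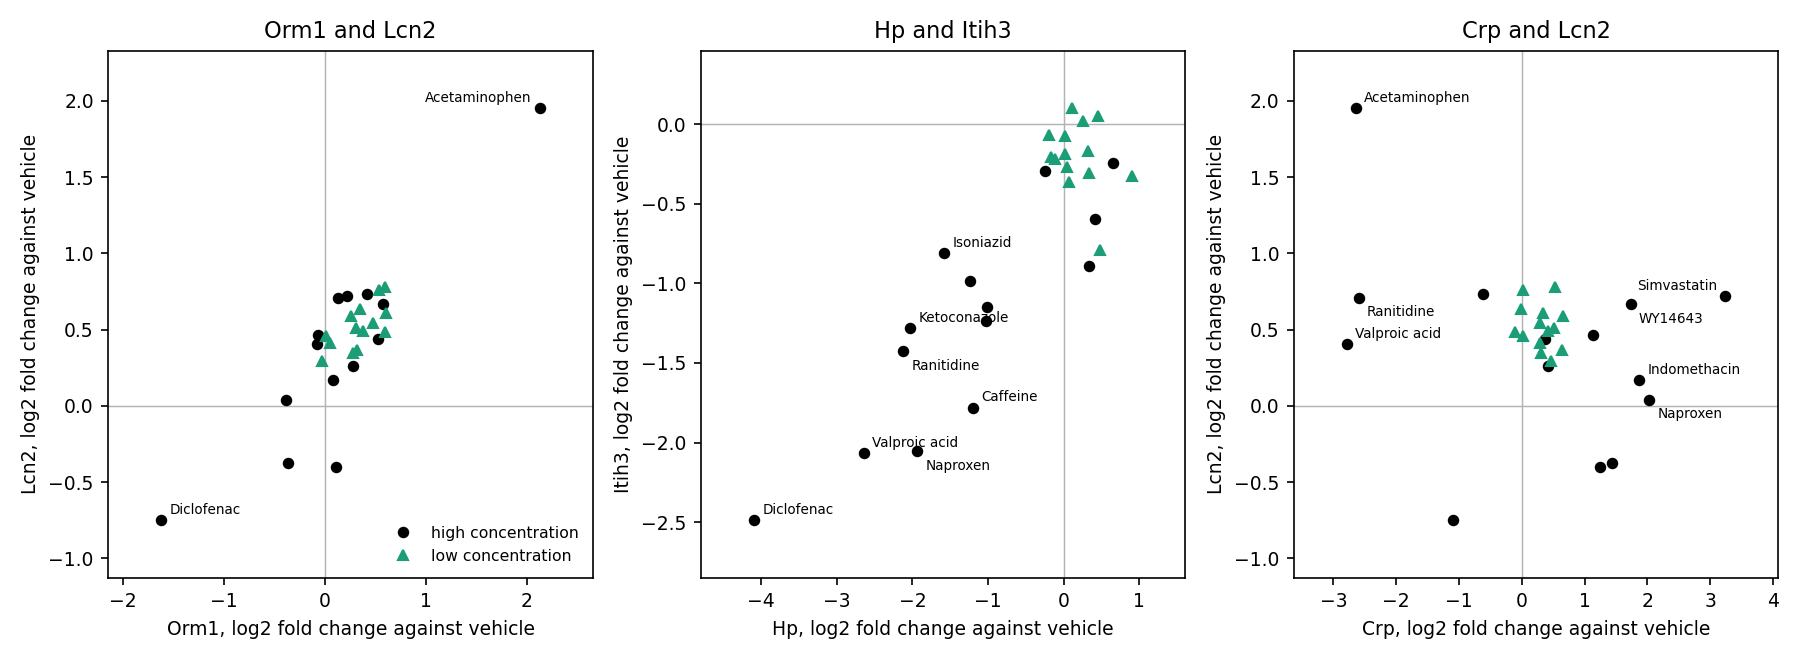
L2FC against vehicle (log2) of one gene against that of another for 3 pairs, 1 point per treatment (28 points), with circles for high and triangles for low concentrations. Orm1 and Lcn2 (r of 0.877) and Hp and Itih3 (0.867) spread along a line, with diclofenac at its lower end, whereas Crp and Lcn2 do not (-0.319, and -0.078 without the 2 farthest).

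Among all tested genes, the one most like Orm1 over the treatments was Mup4 (r of 0.9), which was also the one most like Lcn2 (0.884). Mup4 belongs to the major urinary proteins, a family of near-identical lipocalins, so that its reads may come from other members of the family. Hp was nearest to Proz (0.961), Hpx to Cfi (0.92) and Cp to C4bpa (0.892), which encode plasma proteins of coagulation and complement made by the liver. Crp was nearest to Cyp2c22 (0.902), a cytochrome P450, A2m to Hsd11b1 (0.879), which regenerates active glucocorticoid, Lbp to Cd47 (0.9) and Itih3 to RGD1310507 (0.949).

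The batches were compared for each gene and treatment. Of 114 calls, 111 had the same sign in both batches, 72 were called in each batch by itself, and r between the batches over 252 values was 0.878. In 76 calls the wells lay apart from the vehicle wells in both batches. The exceptions in sign were Orm1 with 10000 µM caffeine, Hpx with 300 µM indomethacin and Cp with 200 µM WY14643. For 16 of the 252 tests the L2FC differed between the batches by edgeR, as it did for 2.44% of the tests of all genes. Of the 16, 7 were of Cp, and in all 7 its L2FC was higher in batch 2, which had the lower Cp in vehicle. In a joint test over all treatments the response of all 9 genes differed between the batches, as did that of 50.5% of all genes.

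**Figure D5:**
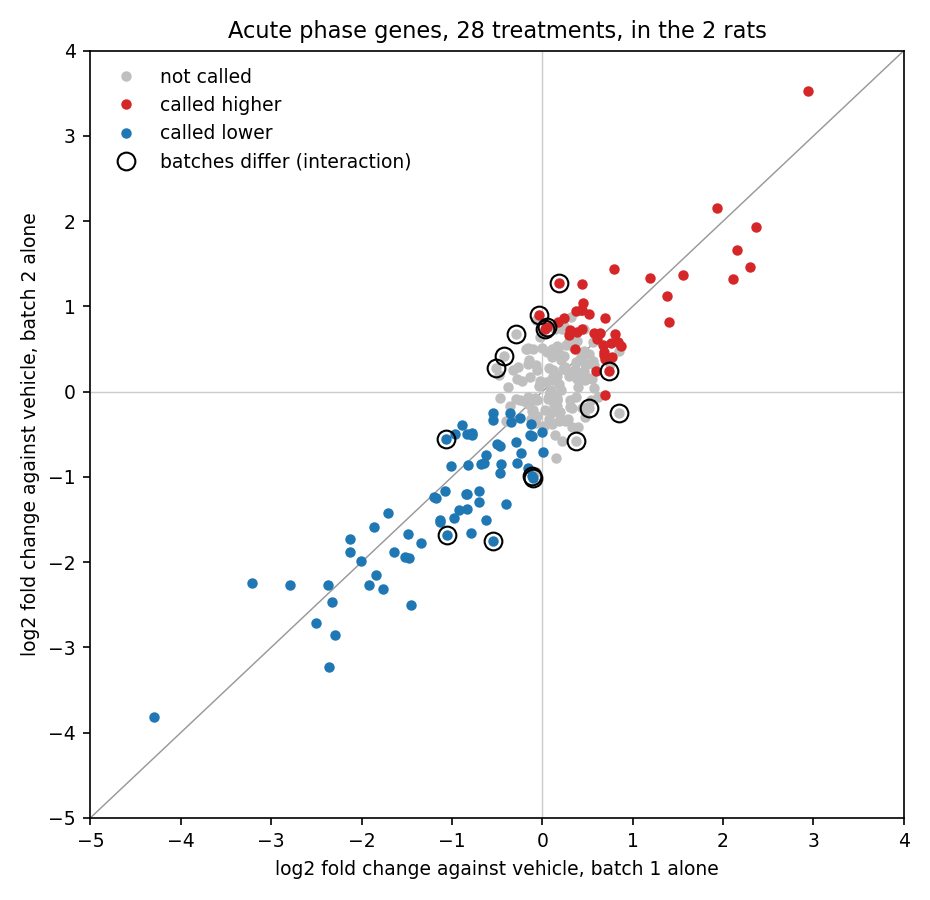
L2FC against vehicle (log2) in batch 1 and in batch 2 of the 9 genes with 28 treatments (252 points), each batch being the hepatocytes of 1 rat, colored by call and ringed for the 16 values that differed between the batches. Points follow the diagonal (r of 0.878), with Hp under diclofenac at the lower end and Crp under simvastatin at the upper.

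Plates bear on these values. In batch 1 all vehicle wells were on one plate, and acetaminophen, chloramphenicol, indomethacin, ketoconazole, sulfasalazine and WY14643 were on the other, so for these chemicals plate and treatment cannot be told apart in batch 1. In batch 2, the vehicle wells of the plate with these chemicals had a higher level of all 9 genes than those of the other plate, and 5 were called by edgeR: Lcn2 (0.55), Hp (0.49), Hpx (0.47), A2m (0.34) and Crp (0.31), where 12.2% of all genes were called. Against the vehicle wells of their own plate in batch 2, 41 of 252 tests were higher and 72 lower, where 13.9% of the tests of all genes were higher and 13.2% lower.

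The ST assay measured 8 of the genes in the same wells. Over 224 tests 39 were higher and 61 lower, where 17.1% of all ST tests were higher and 17.6% lower. Of the 102 WT calls of these 8 genes, 92 were also called by ST with the same sign and none with the opposite sign, and r of L2FC was 0.986. The largest difference was 0.565, for Hp with ranitidine. The lysate is shared, so this compares the assays and not the cells.

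Other genes of the response are described by lists of textbook roles, to be read beside the shares of all tested genes given above, 25.4% higher and 25.5% lower at high concentrations and 4.91% and 4.5% at low ones. Of 25 other positive acute phase proteins, tests over the 14 high treatments gave 84 higher (24%) and 165 lower (47.1%), and over the low ones 31 higher and 11 lower. Acetaminophen raised Hamp (3.54), the iron hormone hepcidin, and Cfb (1.65), a complement factor, and lowered Mbl2 (-4.40), a lectin, and Fgb (-2.36), a fibrinogen chain. With diclofenac 3 were higher and 20 lower, where 36% of all genes were higher and 35.8% lower, with the metallothionein Mt2A at 3.49 and Fga, another fibrinogen chain, at -3.84. With doxorubicin 12 were higher and 4 lower, where 9.07% of all genes were higher and 10.3% lower, with C4b at 1.10 and Fga at 1.01. The 15 negative acute phase proteins, which fall in inflammation, gave 30 higher (14.3%) and 127 lower (60.5%) tests with the high treatments, with 14 of 15 lower and none higher for diclofenac (L2FC of -3.79 for Fetub and -2.94 for Apoa1).

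Receptors and signalling genes of the cytokines (19 tested) gave 91 higher and 59 lower tests with the high treatments and 4 higher and 21 lower with the low ones. With acetaminophen Lifr (3.37) and Il1rap (2.02), receptor chains of the interleukin 6 and interleukin 1 families, were higher, and Tnfrsf1a (-1.79) and Osmr (-1.44) were lower. Transcription factors of acute phase genes (17 tested) gave 66 higher and 78 lower tests, and with acetaminophen Atf3 (3.14) and Fos (3.05) were higher and Bcl3 (-3.58) was lower. Glucocorticoid targets (8 tested) gave 38 higher and 44 lower tests at the high concentrations. With simvastatin 6 of these were higher and none lower, Pck1 (1.71) and Tdo2 (1.48) among them, where 11.4% of all genes were higher and 12.5% lower. Alb and Ttr of the negative acute phase proteins and Tdo2 are also among the hepatocyte markers.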

How the data were processed

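Lysates of 186 wells were measured by the ST and the WT assay of TempO-Seq. Per the submitters' processing notes, reads were mapped by the authors with STAR 2.5.3a against rn6, and the authors deposited 1 table of raw read counts per probe and well for each assay, without normalization. Groups, concentrations, batches and plates were taken from the sample labels. Counts of probes with 1 symbol were added, ignoring upper and lower case, which gave 20946 genes in the WT table. CPM was computed on the total count of a well. ST counts ranged from 558190 to 2210264 per well.

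Genes averaging 10 or more counts over the 186 wells were fitted by edgeR 4.0.16 (quasi-likelihood F test, R 4.3.3), with TMM normalization, all groups in the fit and the batch as a term, since each batch is 1 rat and so pairs the groups. L2FC is against the vehicle wells of the same batches. P-values were adjusted by Benjamini-Hochberg over the 10191 tested WT genes (1760 in ST) and called under 0.05. On counts simulated for 2000 µM naproxen, 194 of 200 genes changed 2-fold were recovered, with 9 false calls. The simulation gave all genes the same dispersion, the same change in both batches and no change in any other gene. These data differ in each of these points, so the counts need not carry over to them. Alternatives were RLE size factors, total counts, no filter, no batch term, each batch alone, each replicate number left out, ST, DESeq2 1.42.0, vehicle wells of the same plate in batch 2 and a minimum absolute L2FC of 1.

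The 10 acute phase proteins and the other lists were chosen with earlier results of these data known. All 9 measured ones are given in every comparison. Wells are printed for the treatments with the highest and the lowest L2FC among calls with the same sign in both batches, and from the other lists up to 2 genes a direction are named. Some genes chosen by this rule are not reported here. Gene names, positions and promoters came from RefSeq (GRCr8), and its coordinates were not combined with those of rn6.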

Additional observations from a re-analysis of the deposited data

Results flagged for a closer look

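In a test of all treatments together, the response of each of the 9 acute phase proteins differed between batch 1 and batch 2, as did that of 50.5% of all tested genes. The adjusted p of this interaction, by edgeR, was 4.63e-13 for Lbp, 5.58e-13 for Cp, 6.20e-11 for A2m, 2.94e-10 for Crp, 1.07e-06 for Hp, 4.74e-06 for Orm1, 1.49e-05 for Hpx, 0.00510 for Lcn2 and 0.00802 for Itih3. Each batch holds 1 rat, its own plates and vehicle wells, and its own library construction and sequencing, so these cannot be told apart. By single treatment, the interaction was called for Cp with 18 µM chloramphenicol, 300 µM indomethacin, 2000 µM naproxen, both concentrations of sulfasalazine and both of WY14643. For Lbp it was called with 10000 µM caffeine, 10000 µM isoniazid and 15 µM ketoconazole, and for A2m with 0.08 µM doxorubicin, 15 µM ketoconazole and 4000 µM ranitidine. For Crp it was called with 400 µM diclofenac and 100 µM sulfasalazine and for Itih3 with 4000 µM ranitidine. In 2 of these the wells of 1 batch were uneven. A2m with 0.08 µM doxorubicin held 919.5, 3289.5 and 3799 CPM in batch 2, and Crp with 400 µM diclofenac held 33.2, 48.2 and 162 CPM in batch 1. Groups of 3 wells were not tested for a well far from the others. Among the 18 groups of 6 wells, which are vehicle and culture medium in batch 2 for each of the 9 genes, none held one.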

How the results depend on the processing

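Over the 28 treatments, 44 tests of the members were called higher and 70 lower. Without the replicate block (the batch term left out) these counts were 26 and 56. Leaving out the wells of replicate 1, 2 or 3 gave 29 to 37 higher calls, 29 of them without replicate 3, and 61 to 65 lower calls. Requiring an absolute L2FC of at least 1 left 11 higher and 37 lower, and for the high against the low concentration 7 higher and 39 lower in place of 18 and 63. The 2 lower calls of culture medium alone became 0 without the block, 0 in batch 1 alone, 0 with an absolute L2FC of at least 1, and 0 to 1 with a replicate left out. RLE size factors (43 and 69), DESeq2 (43 and 69), no filter (42 and 67), total counts (37 and 81), batch 1 alone (33 and 53), batch 2 alone (49 and 74), the ST assay (39 and 61) and vehicle wells of the same plate in batch 2 (41 and 72) stayed within 1.5 times. With scaling by total counts the median L2FC of all genes was -0.43 with 10000 µM acetaminophen and 0.27 with 10000 µM valproic acid, against -0.0187 and -0.00251 in the main fit.

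The sign of a single call turned for Orm1 with 10000 µM caffeine in batch 1 alone (0.00842), Cp with 200 µM WY14643 in batch 1 alone (-0.0382) and Hpx with 300 µM indomethacin in batch 2 alone (-0.0416) and against vehicle of the same plate (-0.26). Against vehicle of the same plate the L2FC of Hpx was 8.24e-05 with 2000 µM naproxen and 0.00149 with 60 µM simvastatin. The cause was not tested.

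Of the 116 calls, culture medium included, RLE and DESeq2 kept 114 each, no filter 111, total counts 108, batch 2 alone 108, the paired fit without its block 82 and batch 1 alone 77. The call of Hp with 100 µM sulfasalazine was lost under every alternative, ST and the minimum L2FC included. The part of read depth in these losses was not tested, and n is 2 rats.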

Other observations

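With valproic acid at 10000 µM, 4 of 25 other positive acute phase proteins were higher and 20 lower by edgeR, where 33.5% of all tested genes were higher and 33.2% lower. Among them were Hamp, which encodes hepcidin, at an L2FC of 7.40, the metallothionein Mt2A at 1.60, and the alpha-2-macroglobulin relative Pzp at -2.90 and Mbl2 at -2.54. At 400 µM, 10 were higher and none lower, where 15.1% of all genes were higher and 14% lower, and Fga was at 0.93. The difference between the concentrations was not tested for the list. Naproxen at 2000 µM raised 4 of the 25 and lowered 16 (27.6% of all genes higher and 26.2% lower), and among the transcription factors of acute phase genes it raised Creb3l3 (1.88) and Cebpb (1.81). With simvastatin at 60 µM, 8 of the 25 were higher, Cd14 (0.95) among them, and 4 lower, C3 (-0.80) and Mbl2 (-0.52) among them (11.4% and 12.5%).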
